A study of Mus musculus with 27 samples.

Results

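The genes described here are 38 imprinted genes of the mouse, chosen by symbol from a fixed list, and 37 of them are listed among the 23604 genes of the bulk RNA-seq table that were used. Rtl1 is the member with no entry. At least 1 FPKM (a read level divided by transcript length and by library size) was reached by 32 members in at least 1 library. The other 5, Zim1, Kcnq1, Kcnq1ot1, Airn and Rasgrf1, never reached it.

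An imprinted gene is transcribed mainly from the allele of one parent, because a control region nearby carries DNA methylation laid down in the egg or in the sperm. After fertilisation this methylation is kept through the genome-wide demethylation of the early embryo, with the help of zinc finger proteins such as ZFP57 that bind the methylated motif. Many imprinted genes control growth of the fetus and placenta, and cultured pluripotent cells are known for losing imprints, so their expression and methylation are often examined in new stem cell lines. RNA levels summed over both alleles, as here, do not tell which allele was read.

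The study derived formative pluripotent stem cells (fPSCs), a culture meant to hold the state between naive embryonic stem cells and primed epiblast stem cells, and the labels give every sample as wild type, although 3 of the mESC lines used carry reporters. Bulk RNA-seq covered 19 libraries, with 2 each of mESCs, EpiLCs and EpiSCs, 1 each of Epiblastoids on days 2, 3 and 4, 1 of fPSCs at passage 1, 7 of long-term fPSCs and 2 of fPSCs derived from epiblasts. Histone marks and DNA methylation were measured in fPSCs at P10, and single cells were picked from 4 fPSC clones. Whether replicates came from separate cultures is not stated, so p-values measure the spread between these libraries, which may be technical.

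The mESCs grew without feeders on gelatin in N2B27 with 2i/LIF. EpiLCs were mESCs moved into N2B27 with Activin A, bFGF2 and KSR, and Epiblastoids were cells in the same medium inside Matrigel. EpiSCs grew on Mitomycin C-treated mouse embryonic fibroblasts with Activin A, bFGF2, KSR and the Wnt inhibitor XAV939. Long-term fPSCs grew without feeders, embedded in Matrigel as 3-dimensional cultures, in N2B27 with Activin A, bFGF2 and XAV939. The libraries P1, P10, P20 and P30 came from the mESC line CMT (per the study's methods), and libraries of the lines 46C (P24), BVSC (P14), CMT (P11) and ROSAmTmG (P12) were deposited later with another library kit. Per the study's text, 46C carries a Sox1-GFP reporter, BVSC reporters of Blimp1 and Stella, and ROSAmTmG a fluorescent reporter at the ROSA locus. Since 15 libraries belong to the first set and 4 to the second, line and library set cannot be told apart except for CMT. The CMT P11 cells had been cryopreserved, per the study's figure legend, so within CMT the library set cannot be told apart from freezing. The fPSCs from epiblasts of E5.5 and E6.5 embryos were at P10 and belong to the first set.

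The library totals lay between 307394 and 414727 FPKM, and the members made up 429 to 1815 of them. Sequencing depth is unknown, because only FPKM values were given. Markers of fibroblasts (18 genes, all listed) summed to 716 and 850 FPKM in the EpiSC libraries and to between 2.41 and 29.3 in all others. Endoderm markers (12 genes) summed to 399 in 46C P24, 471 in Epiblastoids on day 4, 222 in E5.5 and 145 in E6.5 fPSCs, and to at most 102 elsewhere, while Afp was at or below 0.0877 FPKM throughout. In bulk RNA, fewer cells of a type and less RNA per cell cannot be told apart.

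In fPSCs at P10 the CpG islands of imprinted loci were more often partly methylated than CpG islands at large, although most were low or high. Islands were found in the mm9 sequence (NCBIM37) as stretches of at least 200 bp with a GC share of at least 0.5 and an observed over expected CpG ratio of at least 0.6. Of the 108 islands within 10 kb of a member, 21 (19.4%) had a mean methylated fraction between 0.3 and 0.7, against 4.91% of all 68243 islands. Among islands of at least 500 bp it was 15 of 49 (30.6%), against 3.39% of 23403. The others of that length near members were low (27) or high (7), where 59.4% and 37.2% of all islands of that length were. Of all 108, 31 were low and 56 high, where 25.8% and 69.3% of all islands were. Several islands share a locus, as at Gnas and Mest, so the islands are not independent. A region methylated on a single parental allele reads between the extremes in bulk, but a mean fraction cannot tell alleles from cells. The deposited values come as 1 file with no coverage. The labels list replicates, and whether the file pools them is not given.

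The islands at intermediate methylation included those at the starts of paternally expressed genes whose maternal copy is normally methylated. At Snrpn, which encodes a splicing protein, the island at chr7:67149547-67150218 had a fraction of 0.416. The Mest island (chr6:30687592-30688564) had 0.599, that of Plagl1, a zinc finger gene, 0.642 (chr10:12810184-12811209) and that of Nnat, a gene within an intron of Blcap, 0.681 (chr2:157385455-157386413). Ndn and Mkrn3, neighbours of Snrpn, had 0.503 and 0.397. Across the Gnas locus, which encodes the stimulatory G protein subunit and several overlapping transcripts, 4 islands lay between 0.349 and 0.545, 3 were low (0.0340, 0.0353 and 0.184) and 6 were high (0.735 to 0.993).

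Other islands of imprinted loci named here were low or high, except for an island at Grb10. The island shared by the starts of Peg10, a retrotransposon-derived gene, and Sgce (chr6:4696843-4698740) had 0.213, and the Peg3 island (chr7:6681852-6683248) had 0.0967. With limits of 0.2 and 0.8 the Airn and the Peg10 islands count as intermediate. At Zrsr1, a splicing factor gene inside Commd1, the fraction was 0.0100 (chr11:22871884-22873503), and at Mcts2, which lies in an intron of H13, it was 0.0450 (chr2:152512424-152513133). Of the 2 largest islands at starts of Grb10, a growth inhibitor, the one at chr11:11936363-11938161 had 0.145 and the other, at chr11:11925414-11926726, was intermediate with 0.403. In the opposite direction, the intronic island of Kcnq1, from which the non-coding Kcnq1ot1 is transcribed, had 0.861 (chr7:150480863-150482599), and the island over Cdkn1c, a cell cycle inhibitor of the same domain, had 0.820.

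The regions that carry methylation from the sperm differed. Of 36 windows in the 5 kb before the H19 start (chr7:149764049-149769048), 35 had a fraction above 0.7, with a median of 0.885 and a lowest value of 0.670. Between Dlk1 and Meg3, the island at chr12:110766311-110766853, 12358 bp before the Meg3 start, had a mean of 0.550 over 5 windows. The other 8 islands of that interval lay between 0.885 and 1.00. Both regions were picked after values had been seen. At the start of Meg3 itself the island had 0.744. The islands at annotated starts of Dlk1 had 0.176 (chr12:110691102-110692359) and 0.927 (chr12:110697770-110698589).

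The following stretches of 160 bases show what the sequence of these islands looks like at 3 methylation levels, namely intermediate (Snrpn, Mest), low (Peg3, Zrsr1) and high (the Kcnq1 intron). All are the plus strand of mm9, and capitals mark the hexamer TGCCGC or its reverse complement GCGGCA, the core of the motif that ZFP57 binds when methylated. Each is the stretch of its island with most hexamers that touches no untranslated region. The Zrsr1 stretch lies in coding sequence, and the other 4 lie outside exons of members.
Snrpn island, chr7:67149559-67149718: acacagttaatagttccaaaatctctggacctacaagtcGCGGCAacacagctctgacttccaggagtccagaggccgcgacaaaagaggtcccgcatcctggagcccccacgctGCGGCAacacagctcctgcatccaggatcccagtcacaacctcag
Mest island, chr6:30687592-30687751: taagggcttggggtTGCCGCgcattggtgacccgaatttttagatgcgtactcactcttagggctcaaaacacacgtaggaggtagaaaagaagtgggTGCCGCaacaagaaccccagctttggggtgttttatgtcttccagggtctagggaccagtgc
Peg3 island, chr7:6682748-6682907: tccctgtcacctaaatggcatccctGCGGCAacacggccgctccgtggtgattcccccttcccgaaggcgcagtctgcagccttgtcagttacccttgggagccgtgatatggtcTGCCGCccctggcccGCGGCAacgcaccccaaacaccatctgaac
Zrsr1 island, chr11:22873272-22873431: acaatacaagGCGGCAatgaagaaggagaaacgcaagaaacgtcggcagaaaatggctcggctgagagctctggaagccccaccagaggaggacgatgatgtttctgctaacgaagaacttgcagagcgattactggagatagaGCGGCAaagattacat
Kcnq1 intron island, chr7:150481533-150481692: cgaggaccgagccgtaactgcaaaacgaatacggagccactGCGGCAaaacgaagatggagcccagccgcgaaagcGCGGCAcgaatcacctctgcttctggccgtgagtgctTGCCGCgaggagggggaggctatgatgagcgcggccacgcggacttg

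The hexamer, counted on both strands with overlaps allowed, occurred at least once in 36 of the 49 member islands of 500 bp or more (73.5%), against 49.3% of all 23403, with no matching for island length. It was found in 9 of the 15 islands at intermediate methylation (60.0%) and in 23 of the 27 at low methylation (85.2%). The Mest island held 10 hexamers, Peg3 7, Plagl1 and Nnat 6 each, Snrpn and the island at the gene start of Grb10 5 each, and the Kcnq1 intron 3. The median number of hexamers was 2 in intermediate and 1 in low islands. A match is a run of letters, not a bound site.

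**Figure D1:**
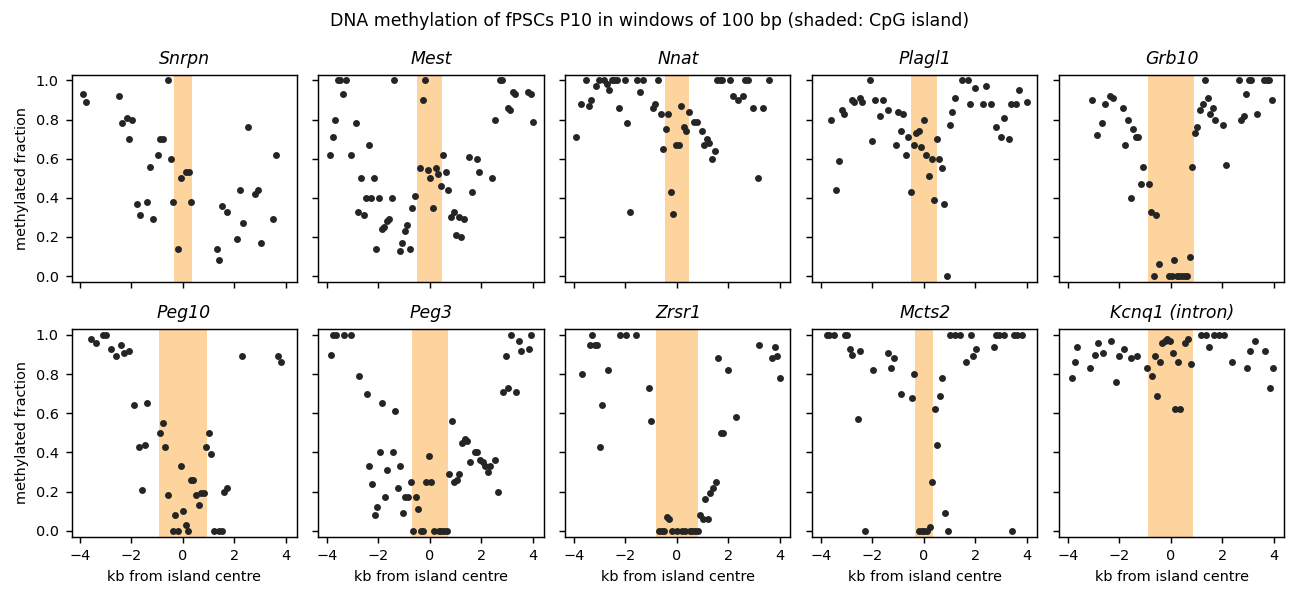
Methylated fraction (y axis, 0 to 1) in windows of 100 bp against the distance in kb from the centre of 10 CpG islands of imprinted loci (x axis), in fPSCs at P10. Each point is 1 window and the shading marks the island. The Snrpn, Mest, Nnat and Plagl1 islands sit at intermediate values, the Zrsr1 and Mcts2 islands near 0 and the Kcnq1 intron near 1.

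The histone marks at these genes were read as RPKM (reads per kilobase, scaled to the reads of the library) within 1 kb of the annotated start, and ranked among 32044 genes. H3K27me3, the mark of Polycomb repression, reached the 90th percentile at 14 of 37 members with a start site, and H3K4me3, the mark of active or poised starts, reached the 50th at 26. The highest H3K27me3 values were at Igf2 (3.80 RPKM, 99th percentile), Grb10 (3.67, 98.8th), Ascl2 (3.25, 98.2th) and Plagl1 (3.03, 97.7th). Zrsr1 had the highest H3K4me3 of the members (15.6 RPKM, 99.9th percentile). Medians over members were 2.61 RPKM for H3K4me3 and 1.09 for H3K27me3, against 1.06 and 0.289 over all genes. Annotated gene starts can lie away from the imprinted start, as at Snrpn, where the outermost start had a methylated fraction of 0.874.

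Members were then compared between cell states with limma on log2(FPKM + 1), a scale that understates changes of low genes, and a gene was called where it changed at least 1.5-fold with an adjusted p below 0.05. Genes at 1 FPKM in at least 2 libraries were tested, 12513 in all, of which 32 were members. These comparisons share libraries, so their counts are not independent. The states were fitted together, so the spread behind each p-value includes that among the long-term fPSC libraries. This holds also for EpiLCs or EpiSCs against mESCs, and the long-term fPSC libraries differ in line, passage and library set.

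Relative to mESCs, EpiLCs had 7 members higher and 4 lower, against 12.2% of all genes higher and 17.4% lower. In EpiSCs 15 members were higher and 3 lower, against 23.1% and 24.7% of all genes. In fPSCs it was 15 higher and 5 lower, against 17.3% and 23.0%. The members' median log2 fold change was 0.46 in EpiLCs, 1.12 in EpiSCs and 0.81 in fPSCs, where the median over all genes was -0.06, -0.09 and -0.04. Leaving out a mESC library or the first EpiLC library reduced the EpiLC calls from 11 to 4 or 5, and without the first mESC library 12 of the 20 fPSC calls against mESCs were made. The EpiLC calls of Cd81 and Nnat were lost whichever of the 4 libraries was left out. The fPSC calls of Grb10, Nnat, Peg10, Slc38a4 and Zrsr1 were lost without either mESC library, those of Mcts2 and Ube3a without the first and those of Gnas and Sgce without the second.

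Split by the parental allele, paternally expressed members made up most of the higher ones. In EpiSCs 11 of 18 tested paternally expressed genes were higher than in mESCs and 2 lower, and of 14 maternally expressed genes 4 were higher and 1 lower. In fPSCs the counts were 11 higher and 3 lower of 18, and 4 higher and 2 lower of 14. The difference between the lists was not tested.

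Between fPSCs and EpiLCs 3 members were higher in fPSCs (Gnas, Magel2, Peg3) and 1 lower (Peg12), against 5.66% and 8.15% of all genes. In both directions together 4 of 32 members were called, a share near that of all genes (1728 of 12513). Without the second EpiLC library limma called 0 members (5 at an unadjusted p under 0.05) and without the first 2, and with fPSCs of the first library set alone 10 members were called. The share of all genes called under these settings is not given here, so these counts do not speak for imprinted genes in particular. Against EpiSCs, fPSCs had 6 members higher and 13 lower, where 13.3% and 19% of all genes were. The median fold changes were 0.07 and -0.21, and those over all genes 0.01 and 0.02. Without the second EpiSC library 12 members were called against EpiSCs. The calls of Grb10, Sgce and Snrpn were lost without either EpiSC library, and those of Gnas, Impact and Phlda2 without the second.

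Combined, 7 members were called above mESCs and below EpiSCs in fPSCs (Cdkn1c, Gnas, Grb10, Igf2, Nnat, Peg10, Sgce), 2 were above both (Mcts2, Snrpn), 3 below both (Cd81, Peg12, Plagl1) and 1, Zrsr1, was below mESCs and above EpiSCs. These patterns were counted among members only, with no share over all genes, so they are a description. Several of the calls were lost without single libraries, as given above. The fibroblast markers stood at 716 and 850 FPKM in the EpiSC libraries, with 15 of the 15 tested higher than in mESCs. Their part in the EpiSC levels was not tested.

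**Figure D2:**
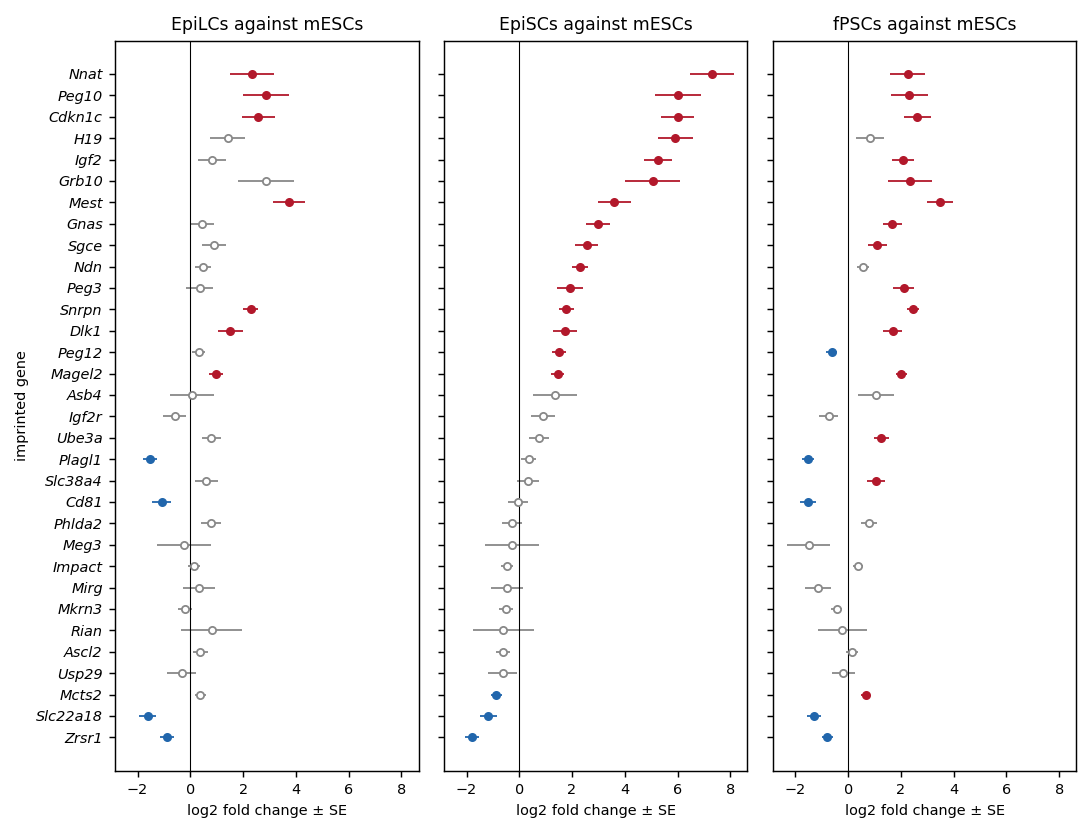
Fold change against mESCs (x axis, log2 scale, bars are standard errors) of the 32 tested imprinted genes (y axis, ordered by EpiSCs) in EpiLCs, EpiSCs and fPSCs. Filled red points were called higher, filled blue points lower, and open grey points were not called. Nnat has the largest change in EpiSCs, at 7.30.

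At the Igf2-H19 locus on chromosome 7, EpiSCs stood apart. H19, a maternally expressed non-coding RNA (chr7:149761434-149764048, minus strand), was at 0.190 and 0 FPKM in the mESC libraries, 1.68 and 2.14 in EpiLCs and 73.4 and 57.6 in EpiSCs. The 7 fPSC libraries ran from 0.0363 to 3.47 with a median of 0.347, below every EpiSC value. Its log2 fold change in EpiSCs was 5.92 (SE 0.65, limma adjusted p = 8.69e-06) against mESCs, and fPSCs were 5.09 lower than EpiSCs (-5.09, SE 0.52, adjusted p = 7.75e-06). Igf2, the paternally expressed fetal growth factor (chr7:149836673-149852721), was at 0.138 and 0 in mESCs, 1.27 and 0.558 in EpiLCs, 35.2 and 45.1 in EpiSCs and between 1.21 and 6.79 (median 4.71) in fPSCs. All fPSC libraries lay above mESCs and below EpiSCs, at 2.08 (SE 0.43, adjusted p = 0.00169) and -3.18 (SE 0.43, adjusted p = 0.000104).

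The Dlk1-Meg3 locus on chromosome 12 gave no call for its maternally expressed RNAs. Meg3, a long non-coding RNA (chr12:110779211-110809936, plus strand), was at 41.8 and 41.8 FPKM in mESCs, 30.2 and 41.0 in EpiLCs and 40.8 and 29.0 in EpiSCs. In fPSCs it ran from 2.35 to 56.5 (median 10.6), overlapping all other groups, and its fold change against mESCs was -1.50 (SE 0.82, limma adjusted p = 0.158). Rian, a non-coding host of small nucleolar RNAs (chr12:110842155-110899919), already differed within pairs of replicates, with 10.5 and 69.9 in mESCs and 23.2 and 103 in EpiLCs. EpiSCs had 17.7 and 17.5, and fPSCs 3.17 to 51.2 (median 32.0). Mirg, a host transcript of microRNAs further along, was at 5.61 and 8.26 in mESCs, 8.58 and 9.06 in EpiLCs, 4.10 and 5.27 in EpiSCs and 0.477 to 8.33 (median 2.52) in fPSCs. The paternally expressed Dlk1, a Notch-related surface protein, was the called gene of the locus, from at most 0.0302 FPKM in mESCs to between 0.980 and 4.54 in fPSCs (1.68, SE 0.37, adjusted p = 0.00270).

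Snrpn had high levels outside mESCs. It was at 32.0 and 34.4 FPKM in mESCs, 154 and 177 in EpiLCs, 119 and 113 in EpiSCs and 113 to 230 (median 202) in fPSCs (chr7:67127388-67285105). No library of the other states reached down to mESCs, and the fold change of fPSCs against mESCs was 2.46 (SE 0.23, limma adjusted p = 1.86e-06). Its neighbour Ndn, which encodes a growth suppressor of the MAGE family, was at 2.99 and 2.39 in mESCs, 3.74 and 4.51 in EpiLCs, 16.2 and 17.7 in EpiSCs and 3.05 to 7.50 (median 4.48) in fPSCs. Ndn was called in EpiSCs against mESCs (2.29, SE 0.30, adjusted p = 4.26e-05) and not in fPSCs (0.56, SE 0.24, adjusted p = 0.0757). Ube3a, a ubiquitin ligase whose imprint is known from neurons, was at 6.91 and 7.91 in mESCs, 20.5 and 8.98 in EpiLCs, 15.7 and 10.7 in EpiSCs and 13.5 to 29.3 (median 18.0) in fPSCs (1.26, SE 0.29, adjusted p = 0.00373 against mESCs). Magel2 rose from at most 0.0103 in mESCs to between 2.11 and 4.13 in fPSCs, whereas Peg12 was lower in fPSCs than in all 3 other states and Mkrn3 was not called.

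Peg3, a zinc finger gene expressed from the paternal allele (chr7:6656603-6683132), was at 3.28 and 2.40 FPKM in mESCs, 5.41 and 2.68 in EpiLCs, 13.4 and 13.4 in EpiSCs and 8.31 to 25 (median 18.0) in fPSCs. All fPSC libraries lay above both mESCs and EpiLCs, with fold changes of 2.1 (SE 0.40, limma adjusted p = 0.000906) and 1.75 (SE 0.40, adjusted p = 0.00992). Without the second EpiLC library the latter was 1.35, with an adjusted p of 0.169. Usp29, a ubiquitin protease gene of the same locus, was between 0.252 and 4.65 FPKM in all libraries and was not called between states.

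In the Kcnq1 domain the levels went in different directions. Cdkn1c was at 1.67 and 1.53 FPKM in mESCs, 14.4 and 14.4 in EpiLCs, 120 and 226 in EpiSCs and 5.77 to 32.5 (median 12.3) in fPSCs (chr7:150644255-150646955). Each state lay above mESCs, by 2.57 (SE 0.63, limma adjusted p = 0.00796), 6.0 (SE 0.63, adjusted p = 6.5e-06) and 2.62 (SE 0.51, adjusted p = 0.00104). Cd81, a membrane protein of the tetraspanin family, was at 149 and 127 in mESCs, 57.3 and 71.4 in EpiLCs, 147 and 121 in EpiSCs and 28.1 to 69.2 (median 51.6) in fPSCs, and fPSCs were below mESCs (-1.51, SE 0.30, adjusted p = 0.00111). Phlda2, an inhibitor of placental growth, was at 11 and 11.4 in mESCs, 14.1 and 27.8 in EpiLCs, 11.5 and 7.29 in EpiSCs and 11 to 25 (median 22.0) in fPSCs, and fPSCs were called higher than EpiSCs although the groups overlapped (1.05, SE 0.30, adjusted p = 0.0173). Without the second EpiSC library that value was 0.75, with an adjusted p of 0.244. Slc22a18 was lower than in mESCs in each other state. Kcnq1 stayed at or below 0.0106 FPKM, and Kcnq1ot1 was at 0.171 and 0.301 in mESCs, 0.263 in Epiblastoids on day 3 and at most 0.0405 elsewhere.

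At the Peg10 locus on chromosome 6, Peg10 and Sgce were highest in EpiSCs and Asb4 was not. Peg10 (chr6:4697306-4710514) was at 2.17 and 1.45 FPKM in mESCs, 31.8 and 11.7 in EpiLCs, 183 and 177 in EpiSCs and 2.15 to 28.8 (median 19.6) in fPSCs. The lowest fPSC library, ROSAmTmG P12, overlapped mESCs, and the fold change of fPSCs against mESCs was 2.31 (SE 0.70, limma adjusted p = 0.0169). Sgce, a sarcoglycan read from the same start in the other direction, was at 0.612 and 0.0571 in mESCs, 1.08 and 1.85 in EpiLCs, 6.42 and 6.87 in EpiSCs and 0.584 to 4.99 (median 1.71) in fPSCs. Asb4, a ubiquitin ligase adaptor, was not called between states and was at most 0.0735 in mESCs and EpiLCs, 1.68 and 1.56 in EpiSCs and 0.125 to 10.6 (median 0.581) in fPSCs. With fPSCs of the second set alone, Peg10 and Sgce missed the threshold against mESCs, at adjusted p of 0.0539 and 0.0567.

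Among members that stand alone, Mest, a hydrolase-like protein expressed in mesoderm, had the largest increase of the members in EpiLCs. It was at 10 and 6.0 FPKM in mESCs, 120 and 110 in EpiLCs, 111 and 101 in EpiSCs and 44.2 to 279 (median 99.3) in fPSCs, and its fold changes against mESCs were 3.73, 3.61 and 3.47 (limma adjusted p = 0.000494, 0.000365 and 8.34e-05). Nnat, a small membrane protein of neurons, was at 0.651 and 0.383 in mESCs, 4.99 and 8.85 in EpiLCs, 237 and 237 in EpiSCs and 1.12 to 18.3 (median 6.87) in fPSCs. It was 7.30 higher in EpiSCs than in mESCs (SE 0.83, adjusted p = 1.2e-05) and 2.25 higher in fPSCs (SE 0.66, adjusted p = 0.0146). Grb10 was at 6.17 and 4.46 in mESCs, 41.6 and 48.1 in EpiLCs, 213 and 203 in EpiSCs and 4.49 to 144 (median 25.8) in fPSCs. Its fPSC libraries overlapped mESCs, and the call of fPSCs against mESCs (2.35, SE 0.84, adjusted p = 0.0376) was lost in 5 of 9 alternatives, with adjusted p up to 0.199.

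Gnas was at 41.6 and 19 FPKM in mESCs, 35.9 and 42.4 in EpiLCs, 154 and 345 in EpiSCs and 62.9 to 139 (median 90.5) in fPSCs. Its fPSC libraries lay above mESCs and EpiLCs and below EpiSCs, with 1.67 against mESCs (SE 0.36, limma adjusted p = 0.00214). Slc38a4, an amino acid transporter, was at 9.18 and 9.35 in mESCs, 15.0 and 14.3 in EpiLCs, 13.1 and 10.7 in EpiSCs and 10.5 to 30.3 (median 22.8) in fPSCs (1.04, SE 0.34, adjusted p = 0.0234 against mESCs). Igf2r, the receptor that clears Igf2, was at 16.2 and 6.48 in mESCs, 6.96 and 6.11 in EpiLCs, 22.0 and 18.5 in EpiSCs and 2.58 to 9.03 (median 6.21) in fPSCs, below EpiSCs by 1.64 on the log2 scale (-1.64, SE 0.35, adjusted p = 0.00312). Its antisense RNA Airn reached 0.427 and 0.423 in EpiSCs and at most 0.221 elsewhere.

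Zrsr1 fell outside mESCs, from 15.6 and 15.3 FPKM to 7.26 and 8.56 in EpiLCs, 3.69 and 3.88 in EpiSCs and 6.19 to 11.2 (median 8.84) in fPSCs. The change of fPSCs against mESCs was -0.79 (SE 0.20, limma adjusted p = 0.00700). Mcts2, a retrogene related to translation re-initiation, was at 14.2 and 18.5 in mESCs, 17.8 and 25.9 in EpiLCs, 8.16 and 8.71 in EpiSCs and 21.7 to 29.5 (median 26.0) in fPSCs, and fPSCs lay above EpiSCs (1.53, SE 0.17, adjusted p = 1.55e-05). Impact, a regulator of the stress kinase GCN2, was at 32.5 and 37.0 in mESCs, 43.7 and 32.8 in EpiLCs, 27.6 and 22.5 in EpiSCs and 36.0 to 60.4 (median 44.6) in fPSCs. Plagl1 was at 2.89 and 1.69 in mESCs, 4.88 and 1.88 in EpiSCs and at most 0.305 in EpiLCs and fPSCs, so that it was called lower in fPSCs than in both of the former.

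Several members overlap other genes, namely Airn and Igf2r, Kcnq1 and Kcnq1ot1, Nnat and Blcap, Mcts2 and H13, and Zrsr1 and Commd1. Whether the counting used strand is not given in the sources used here, so reads of such partners may not be told apart. Mcts2 and Zrsr1 are also copies of genes elsewhere in the genome and their values are uncertain for that reason.

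**Figure D3:**
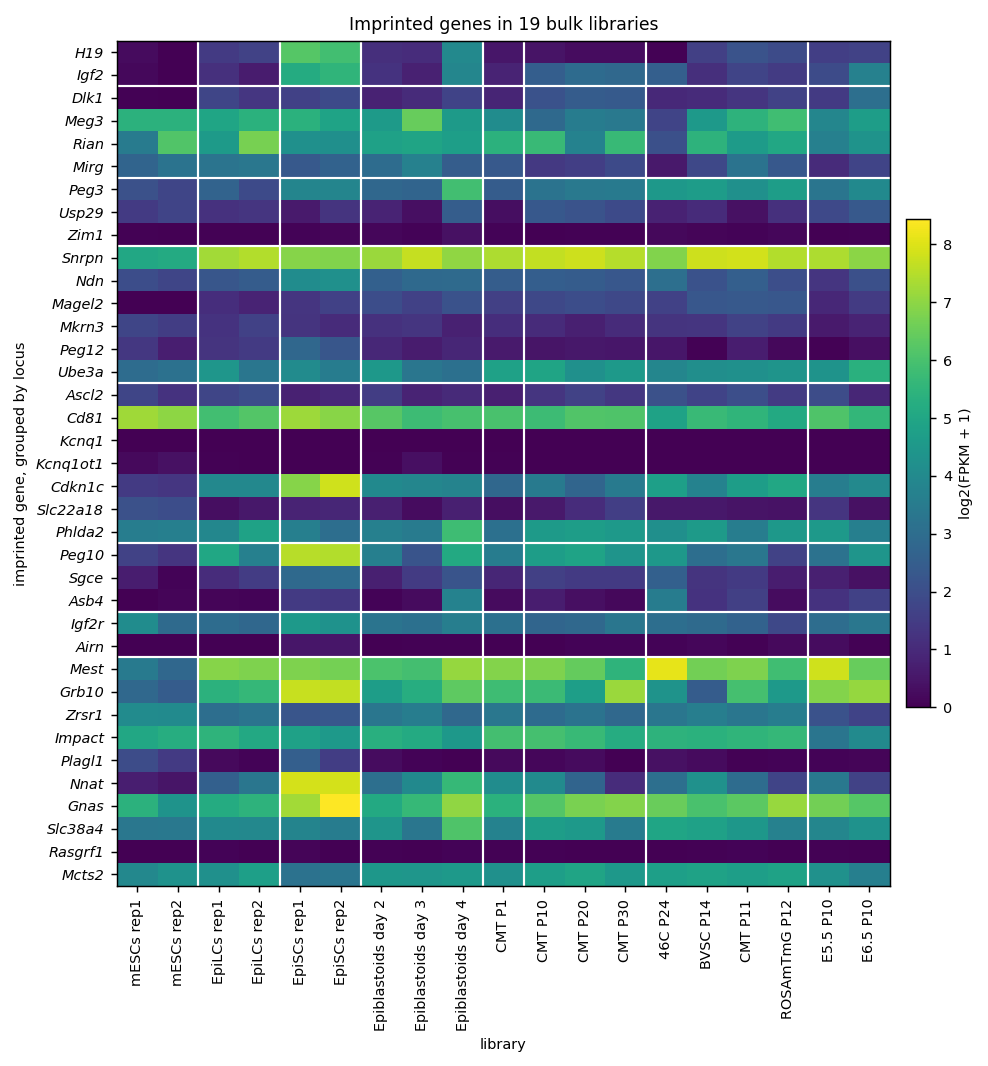
Levels of the 37 listed imprinted genes (y axis, grouped by locus) in the 19 bulk libraries (x axis), as log2(FPKM + 1) on the colour scale. The EpiSC columns hold the highest values for H19, Igf2, Cdkn1c, Peg10, Grb10 and Nnat, and the mESC columns the lowest for Snrpn and Mest.

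Whether fPSCs taken from embryos differ in imprinted genes from fPSCs made of CMT mESCs was asked within the first library set, with 2 epiblast-derived libraries and CMT P10, P20 and P30. The CMT libraries are passages from a single mESC line, and E5.5 and E6.5 have a single library each. The p-values therefore measure spread between passages and between these embryonic stages, and do not speak for mESC-made fPSCs in general. Impact was lower and H19 higher in the epiblast-derived cells, 1 of 30 tested members in each direction, against 0.526% of 10458 genes lower and 0.612% higher. Impact was at 60.4, 50.3 and 36.0 FPKM in the CMT libraries and at 8.65 and 15.4 in E5.5 and E6.5 cells, a fold change of -1.95 (SE 0.29, limma adjusted p = 0.0306). These were the lowest levels of Impact in all 19 libraries. H19 was at 0.347, 0.206 and 0.202 in CMT and at 1.94 and 2.14 in the epiblast-derived cells, or 1.28 (SE 0.18, adjusted p = 0.0252). All 3 CMT values were below the filter of 1 FPKM, so H19 was tested only through the 2 libraries where it was high. Its call is therefore a description of these libraries and not an independent test.

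Neither call held in all alternatives. Impact missed the threshold without the filter on low values (adjusted p = 0.149), without the E5.5 library (0.0616), without P10 (0.0889) and without P20 (0.108). H19 did so without any of the 3 CMT libraries (0.0671 to 0.114), with a pseudocount of 0.1 (0.0526) and against all 7 fPSCs (0.519). In the lines of the second set, H19 was at 2.02, 3.47 and 2.77 in BVSC P14, CMT P11 and ROSAmTmG P12, levels like those of the epiblast-derived cells, and at 0.0363 in 46C P24. CMT itself was thus at 0.202 to 0.347 in the first set and at 3.47 in the second. The median change of members was -0.16 and that of all genes -0.05. Endoderm markers summed to 222 and 145 FPKM in the epiblast-derived libraries and to 10.9 to 76.8 in the CMT libraries, and their part in both changes was not tested.

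The long-term fPSC libraries differed from each other in imprinted genes. Of 30 members that passed the same filter in the 7 libraries, 24 had a range of at least 1 on the log2 scale, against 38.2% of 10930 genes, and the median range was 1.48 for members and 0.87 for all genes. Without 46C P24 it was 20 of 30, against 30.8%. Within CMT P10, P20 and P30 it was 5 of 28 (Grb10, Mest, Nnat, Rian and Slc38a4), against 3.30% of 10120 genes, with median ranges of 0.47 and 0.29. The members within the limit over all 7 libraries were Ascl2, Impact, Magel2, Mcts2, Mkrn3 and Zrsr1.

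Grb10 had the widest range, 4.72, from 4.49 FPKM in BVSC P14 over 19.3 in 46C, 22.5 in ROSAmTmG, 25.8 in P20, 52.2 in P10 and 60.0 in CMT P11 to 144 in P30. Meg3 followed with 4.10. It was at 6.44, 10.6 and 9.73 in P10, P20 and P30, at 42.4 in CMT P11, 22.3 in BVSC, 56.5 in ROSAmTmG and 2.35 in 46C. For the line CMT, the library of the second set thus lay above the 3 of the first.

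The 46C P24 library was lowest for all 3 maternally expressed RNAs of the Meg3 locus. Meg3, Rian and Mirg summed to 6.0 FPKM in it and to between 24.8 and 153 in the other 18 libraries. Rian was at 3.17 in 46C and at 51.2, 12.3 and 50.9 in P10, P20 and P30, 23.6 in CMT P11, 42.7 in BVSC and 32.0 in ROSAmTmG. Mirg was at 0.477 in 46C, against 1.63 to 8.33 in the other 6. The ratio of Rian to Meg3 varied as well, from 0.250 in the first mESC library to 7.95 in P10. In 46C, Asb4 (10.6) and Mest (279) were at their highest among fPSCs, and Snrpn (113), Cd81 (28.1) and H19 (0.0363) at their lowest. Endoderm markers summed to 399 FPKM and mesoderm markers to 172 in this library, the highest of the fPSCs, and their part in these levels was not tested.

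Nnat ranged over 3.19 and Peg10 over 3.24. Nnat was at 15.5, 5.53 and 1.12 in P10, P20 and P30, 6.87 in CMT P11, 7.51 in 46C, 18.3 in BVSC and 2.32 in ROSAmTmG. Peg10 was at 25.2, 28.8 and 19.6 in P10, P20 and P30, 9.17 in CMT P11, 21.6 in 46C, 7.27 in BVSC and 2.15 in ROSAmTmG. ROSAmTmG was lowest for Peg10 and the second lowest for Nnat, and BVSC was highest for Nnat and the second lowest for Peg10. Cdkn1c was higher in 46C (26.3), CMT P11 (24.7) and ROSAmTmG (32.5) than in BVSC (12.3) and in P10, P20 and P30 (10.1, 5.77 and 10.2).

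Between the library sets, 2 members were higher in the second (Cdkn1c and Peg3) and 4 lower (Cd81, Dlk1, Igf2 and Usp29), where 20.8% of 10930 genes were higher and 8.93% lower. The call of Cd81 was lost in 6 of 11 alternatives, among them that which kept CMT P11 alone from that set, and that of Igf2 in 3. Peg3 was at 8.31, 9.70 and 10.1 FPKM in the first set and at 21.5, 24.4, 18.0 and 25 in the second, without overlap (1.15, SE 0.13, limma adjusted p = 0.000504). Since CMT P11 was at 18.0, the CMT libraries alone differed in the same direction, although CMT P11 was also the cryopreserved one. The median change over members was 0.01 and over all genes 0.19.

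**Figure D4:**
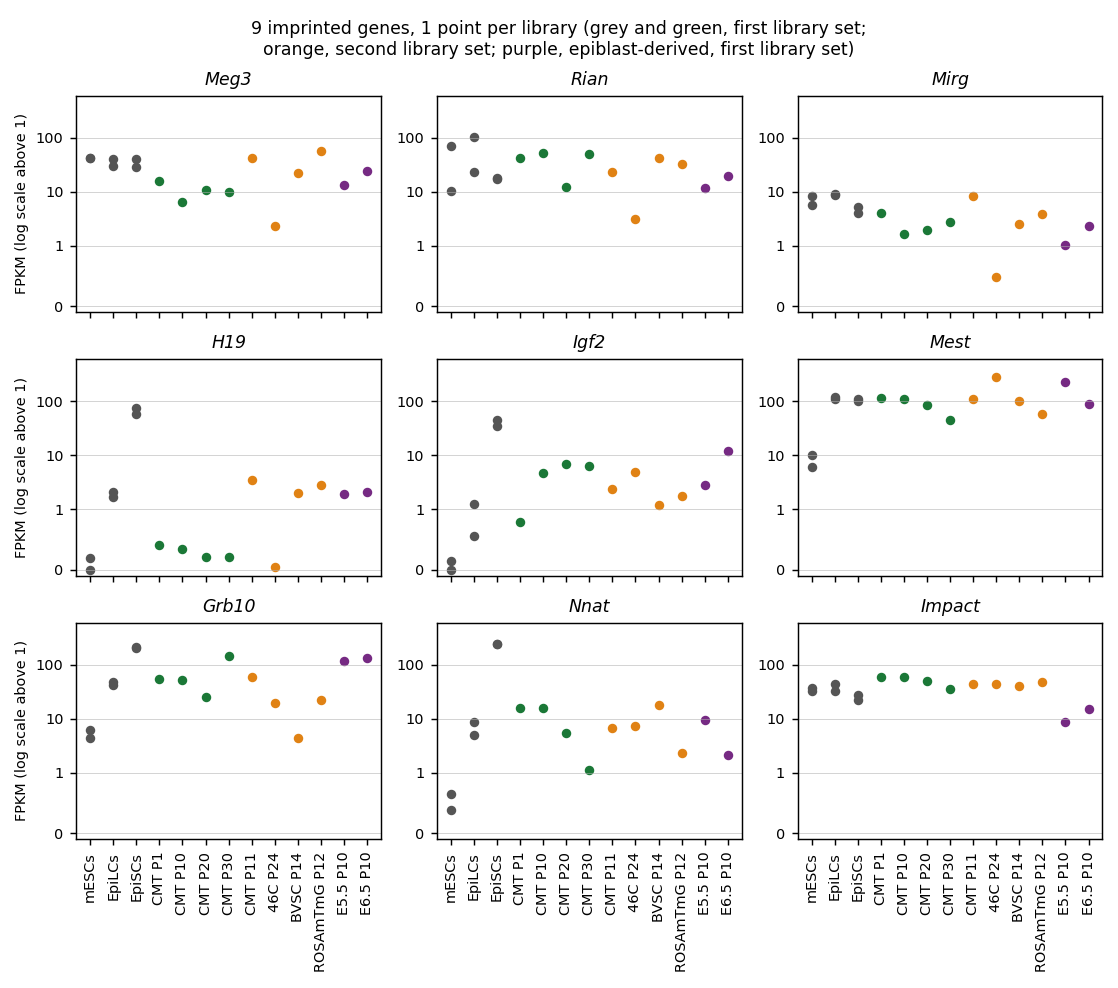
FPKM (y axis, logarithmic above 1 and linear below) of 9 imprinted genes in mESCs, EpiLCs, EpiSCs and the fPSC libraries (x axis), 1 point per library. The 46C P24 library is the lowest for Meg3, Rian and Mirg, at 2.35, 3.17 and 0.477, and the epiblast-derived cells are the lowest for Impact.

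Passages and days have 1 library each, so their ratios have no replicate check and are given as log2 ratios of FPKM + 1. From mESCs to fPSCs at P1, 8 of 27 members were at least 1 higher and 5 at least 1 lower, against 12.5% and 20.3% of 11955 genes. The higher ones were led by Mest (3.74, to 117 FPKM), Nnat (3.5, to 16.1) and Grb10 (3.16, to 54.8), and the lower ones included Meg3 (-1.32, to 16.1). From P10 to P30, Grb10 was higher (1.45), and Nnat (-2.96), Mest (-1.32) and Slc38a4 (-1.19) were lower, that is 1 and 3 of 28 members, against 0.719% and 1.60% of 10425 genes. The medians over members and all genes were 0.38 and -0.18 for P1, and -0.01 and -0.05 for P30.

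Mest passed down the CMT series from 112 FPKM at P10 over 86.3 at P20 to 44.2 at P30, and Slc38a4 from 25.2 over 22.8 to 10.5. Grb10 did not follow the passages in order, with 52.2, 25.8 and 144. Igf2 was at 0.783 at P1 and at 4.71, 6.79 and 6.25 later, and Meg3 at 16.1 and then 6.44, 10.6 and 9.73.

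In Epiblastoids, the 3-dimensional structures grown in Matrigel, day 2 had 11 of 29 members at least 1 above mESCs and 2 below, against 11.4% and 15.9% of 11958 genes. Mest was at 65.3 FPKM on day 2, Cdkn1c at 15.0 and Snrpn at 144. From day 2 to day 3, Meg3 was higher, from 23.4 to 88.8, the highest level of Meg3 in all libraries. Peg10 (11.4 to 3.55), Ube3a (21.4 to 9.01) and Slc38a4 (19.9 to 9.04) were lower, which makes 1 and 3 of 27 members, against 3.11% and 2.47% of 11095 genes.

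From day 3 to day 4, 12 of 29 members were at least 1 higher and 2 lower, against 7.85% and 8.22% of 11357 genes, with a median of 0.52 for members and -0.14 for all genes. The study describes the cells of day 4 as irregular colonies, with polarity lost after day 3. Asb4 went from 0.196 to 12.5 FPKM, Peg3 from 5.63 to 58.0, Igf2 from 0.698 to 13.5, H19 from 1.08 to 14.5, Peg10 from 3.55 to 33.6 and Slc38a4 from 9.04 to 67.7. Phlda2 (10.4 to 54.9), Usp29, Nnat, Gnas, Mest and Grb10 were the others. Meg3 went back to 23.1 and Mirg from 12.2 to 4.58. Slc38a4 and Phlda2 are known from the placenta, and Igf2 and H19 from embryonic mesoderm and endoderm. On day 4 mesoderm markers (8 genes, all at 1 FPKM or more) summed to 777 FPKM and endoderm markers to 471, against 59.3 and 4.25 on day 3, and their part in the result was not tested.

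The single cells were 182 fPSCs of 4 clones (46, 46, 46 and 44 cells), picked by hand, with total counts of 1501395, 3243072, 4712214 and 2449377. Each clone is 1 sample, so no test was made, and intervals are exact 95% ones that cover counting error only. Of the members, 36 were listed in the tables of clones 1 and 2 or of clones 3 and 4, and 19 reached 100 counts over all clones. Whether copies of a molecule were collapsed is not stated.

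Meg3 had a count in 36 of 46 cells of clone 1 (78.3%, 63.6 to 89.1), in 4 of 46 of clone 2 (8.70%, 2.42 to 20.8), in 12 of 46 of clone 3 (26.1%, 14.3 to 41.1) and in 13 of 44 of clone 4 (29.5%, 16.8 to 45.2). Its counts were 538, 4, 350 and 154, or 358, 1.23, 74.3 and 62.9 per 1000000 counts. Clone 2 was the second deepest clone and had the fewest. In clones 3 and 4 a single cell held 64.6% and 77.9% of the Meg3 counts, so these sums rest on it, whereas in clone 1 the highest cell held 16.9%.

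Rian followed a similar order, with a count in 21, 2, 9 and 7 cells (45.7%, 4.35%, 19.6% and 15.9%) and 290, 2, 164 and 294 counts, of which a single cell held 73.5% in clone 4. Both RNAs were seen together in 18, 1, 5 and 2 cells, and neither in 7, 41, 30 and 26. With each cell thinned to 10000 counts, which left 37, 36, 38 and 34 cells, Meg3 was seen in 28, 0, 7 and 4 cells and Rian in 14, 0, 4 and 5. At 0 of 36 cells the 95% upper limit is 9.74%. Clone 2 therefore remained lowest at equal depth, and clone 1 highest.

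Kcnq1ot1 was most frequent in clone 2, with counts in 2, 34, 2 and 6 cells (4.35%, 73.9%, 4.35% and 13.6%) and 3, 947, 72 and 64 counts, of which a single cell held 98.6% in clone 3 and 60.9% in clone 4. After thinning it was seen in 1 of 37, 27 of 36, 1 of 38 and 3 of 34 cells. In clone 2 Nnat and Phlda2 had 1 count each, while the other clones had 90, 14 and 121 counts of Nnat and 60, 266 and 47 of Phlda2, in at most 15 cells. A single cell held 76.0% of the Nnat counts of clone 4, 62.2% of those of clone 1 and 62.0% of the Phlda2 counts of clone 3. In the 7 long-term bulk fPSC libraries Kcnq1ot1 was listed at 0.0067 FPKM or less, at P1 at 0.0298 and in the E6.5 cells at 0.0223, and the annotation used here holds no Kcnq1ot1.

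Snrpn, Mest and Gnas were counted in most cells of each clone. Snrpn was seen in 41, 40, 36 and 35 cells (271, 272, 213 and 209 counts per 1000000), and Mest in 33, 38, 35 and 33 (268, 194, 250 and 232). Gnas was the most counted member, at 792, 870, 691 and 812 per 1000000. The intervals of Snrpn, Mest and Gnas did not overlap for some pairs of clones. The same held for Impact at 183, 230, 240 and 386, Peg3 at 83.9, 142, 110 and 48.6, Cd81 at 91.2, 32.7, 77.5 and 110 and Mcts2 at 84.6, 113, 52.8 and 34.7. These intervals pool the cells of a clone and do not cover the spread between cells. A single cell held 33.2% of the Mcts2 counts of clone 2. H19 had 3 counts in the 182 cells, and Dlk1 had 1 count in the 90 cells of clones 3 and 4.

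**Figure D5:**
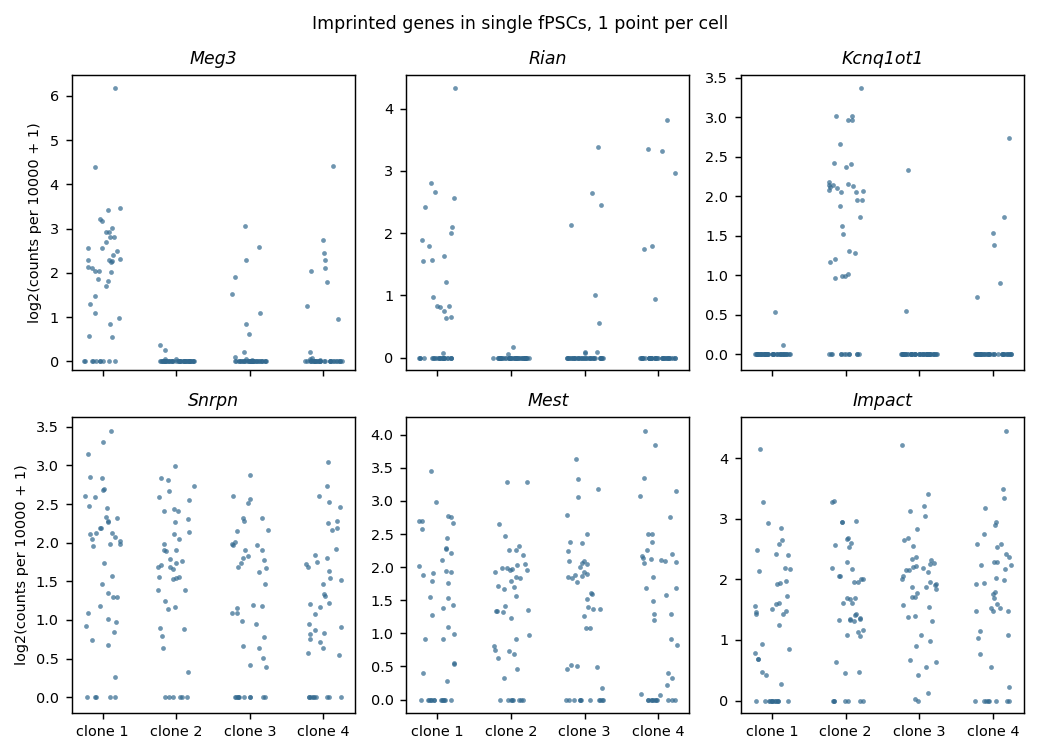
Counts of 6 imprinted genes in single fPSCs, as log2(counts per 10000 + 1) (y axis), by clone (x axis), 1 point per cell. Meg3 and Rian are seen mostly in clone 1 and almost absent from clone 2, Kcnq1ot1 is seen mostly in clone 2, and Snrpn, Mest and Impact are seen in most cells of each clone.

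Of 26 genes that set, keep or remove imprints, all tested, 5 were higher and 7 lower in fPSCs than in mESCs, shares near those of all genes (17.3% and 23.0%). The maintenance methyltransferase Dnmt1 was not called (-0.31, SE 0.14, limma adjusted p = 0.0902), with 68.7 and 52.3 FPKM in mESCs and 42.9 to 53.8 in the fPSC libraries. The de novo enzymes Dnmt3a and Dnmt3b were higher by 3.63 and 4.99 (adjusted p = 2.81e-06 and 2.34e-10). Zfp57 went from 70.1 and 94.5 in mESCs to between 6.89 and 18.7 in fPSCs (-2.84, SE 0.29, adjusted p = 4.83e-06) and was not called between fPSCs and EpiSCs (-0.03, SE 0.29, adjusted p = 0.947). Dppa3, which protects maternal methylation in the zygote, went from 56.4 and 194 to at most 0.0319. EpiSCs had 4 of these genes higher and 12 lower than mESCs, against 23.1% and 24.7% of all genes, and EpiLCs 5 and 4, against 12.2% and 17.4%. Between epiblast-derived and CMT fPSCs limma called 0 of the 22 tested, with 6 at an unadjusted p under 0.05.

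A second list of 34 imprinted genes that are not members had 24 tested. In fPSCs 5 of them were higher than in mESCs and 9 lower, in EpiSCs 8 and 8, and in EpiLCs 4 and 6, where the shares of all genes were 17.3% and 23.0%, 23.1% and 24.7%, and 12.2% and 17.4%. Their median changes were 0.05, 0.16 and -0.10, and those of all genes -0.04, -0.09 and -0.06. Between epiblast-derived and CMT fPSCs, limma called 0 of the 14 tested, with 4 at an unadjusted p under 0.05.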

How the data were processed

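Bulk RNA-seq gave FPKM values per gene, which the authors computed and deposited after alignment, and no read counts, so limma (version 3.58.1, R 4.3.3) was fitted to log2(FPKM + 1) of genes at 1 FPKM in at least 2 libraries, with no count test. The submitters' processing notes name TopHat2 2.1.1, Cufflinks 2.1.1, Bowtie2 2.2.2, cutadapt 1.11, Trim Galore and BS-Seeker2. The deposited ChIP-seq values were RPKM in bins of mm9, with bins not listed taken as 0, and the deposited methylation values were fractions in 100 bp windows. Each mark and the methylation were read from 1 file without coverage. The labels list replicates of each, and whether a file pools them is not given. Single-cell count tables were deposited per pair of clones, and 1 cell name was repeated within a table, both columns being kept. Shares of cells and counts scaled to the depth of a clone carry exact 95% intervals, and cells were also thinned to 10000 counts each.

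The states were compared in a fit of 13 libraries, epiblast-derived with CMT fPSCs in a fit of 5, and the library sets in a fit of 7. Members and gene lists were chosen with earlier results of these data known. Named members reached a mean of 5 FPKM in a group and were called, or ranged over at least 2 on the log2 scale among the 7 long-term fPSCs. A few others were named after their values were seen. No column of samples outside the labels was present. The fit was tested on simulated data with 200 changed genes. Alternatives were a pseudocount of 0.1, no filter, upper-quartile scaling, single library sets, left-out libraries and a replicate block. Leaving out 46C, a distance of 20 kb, cells with 500 genes and a crossed block were chosen after seeing the data. Python used pandas 2.3.3, numpy 2.4.6, scipy 1.17.1 and matplotlib 3.10.9.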

Additional observations from a re-analysis of the deposited data

Results flagged for a closer look

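In 2 of 24 members tested, a library of the 7 long-term fPSCs stood apart by Dixon's test, whose critical gap over range for 7 libraries is 0.568 and which chance passes in about 1 of 20 groups. Both times it was 46C P24. Snrpn was at 113 FPKM in it and at 176 in the nearest library, a gap of 0.623 of the range. Asb4 was at 10.6 FPKM and at 2.02 in the nearest, a gap of 0.577 of the range. Asb4 was among the members tested through its range over these same libraries, which 46C sets, so its gap is a description and not a test.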

How the results depend on the processing

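Of 60 calls of named members, 32 were made under every alternative run. Of 560 pairs of a call and an alternative, 487 kept the call, 73 lost it and 0 changed direction, and 18 of the losses came outside left-out libraries. With libraries left out in turn, the number of members called ran from 4 to 9 for EpiLCs against mESCs (11 with all), 16 to 19 for EpiSCs against mESCs (18), 12 to 20 for fPSCs against mESCs (20), 0 to 5 for fPSCs against EpiLCs (4), 12 to 20 for fPSCs against EpiSCs (19), 0 to 2 for epiblast-derived against CMT fPSCs (2) and 4 to 8 between library sets (6). With fPSCs of the first set alone, 10 members differed from EpiLCs. Epiblast-derived and CMT fPSCs differed in 1 member with a pseudocount of 0.1 and in 1 without the filter. A range of at least 1 was found for 5 members in CMT P10, P20 and P30, against 24 in all 7 libraries. With limits of 0.2 and 0.8, 34 of 108 member islands (31.5%) were intermediate, against 21, and the share over all islands went from 4.91% to 9.69%. Upper-quartile scaling moved the all-gene median of EpiLCs against mESCs by 0.10. Replicate numbers did not pair the samples in the same way in all states. Deviations of the first replicate from its group mean correlated at 0.21 between mESCs and EpiLCs. With EpiSCs the correlations were -0.20 for mESCs and -0.14 for EpiLCs. Whether samples were paired with EpiSC numbers crossed cannot be told from these values. With a replicate block, in a fit of 6 libraries, 14 members were called in EpiLCs and 21 in EpiSCs against mESCs, where the same libraries without it gave 16 and 20, and 20 with EpiSC numbers crossed. Counts of members called in this section stand without the share of all genes called under the same setting. Changes in them therefore do not speak for imprinted genes in particular. The cause of these shifts was not tested. FPKM hold no depth, which limits what can be said of low members.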
